A study of Mus musculus with 4 samples.

Results

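The comparison described here is that of bone marrow cells from diabetic db/db mice with those from db/+ control mice, both cultured in macrophage colony-stimulating factor (M-CSF). It rests on 2 of the 4 libraries of the study, 1 for each genotype, and genes were included when the normalised read value reached 20 in either of them, which held for 13264 of 22700 gene rows. The labels give the genotype of the controls as BKS.Cg-m+/+leprdb+/J and their phenotype as Control, and the genotype of the db/db mice as BKS.Cg-m+/+leprdb/J and their phenotype as Type 2 Diabetic. All donors were male and 12 weeks old. The culture lasted 7 to 8 days and M-CSF was given at 10 ng/ml, while the other 2 libraries, 1 for each genotype, come from marrow given 20 ng/ml of granulocyte-macrophage colony-stimulating factor (GM-CSF). The libraries were made from total RNA after removal of ribosomal RNA and were read from both ends. The sources used here do not say whether a library stands for 1 animal or a pool, nor whether strand was kept, so reads of overlapping and antisense genes cannot be told apart.

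M-CSF is the growth factor that carries marrow progenitors into macrophages, acting through the receptor Csf1r. Marrow put into culture also holds adherent stromal cells, which make collagens and other matrix proteins, carry a contractile actin cytoskeleton and can themselves secrete M-CSF. The db allele is a mutation of Lepr, the leptin receptor gene, that removes the signalling form of the receptor and leads to obesity and diabetes. GM-CSF drives marrow toward other macrophage-like and dendritic-like cells. In its cultures here 19 of 28 fibroblast and stromal markers had a value under 20 normalised reads, among them Prrx1 and Cxcl12 at no more than 7.5. Other markers of the list were high there, such as Fstl1 at 19499.7 in db/+ and 19329.9 in db/db. Pdpn stood at 1138.4 and 1224.3 in the same order, and Igfbp4 at 536.1 and 556.2. Genes with a solid level in both GM-CSF libraries were treated as genes that are not found in stroma alone. This rests on most but not all of these markers, and it does not say which cells gave the reads in M-CSF.

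Since each group is 1 library, no difference had a replicate check, and no p-value is given. A gene was counted as different when the fold on log2(value + 5) was at least 2 in size. This scale understates the fold of genes with few reads. Ratios of a single gene carry a 95% exact binomial interval over read pairs, which covers counting error only, since reads copied by PCR are not independent molecules. Values below are normalised reads, given first for db/+ and then for db/db. The M-CSF libraries held 25603389 and 27590722 reads, and the GM-CSF libraries 27216116 and 28622706. A count of 0 allowed up to 3 read pairs, which is 5.71 and 5.23 normalised reads in the M-CSF libraries.

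The libraries matched their label as macrophage cultures. Csf1r stood at 120626.6 and 105159.2, and the macrophage gene Emr1, which encodes F4/80, at 98661.5 and 97863.4. Itgax, which encodes the dendritic cell integrin CD11c, stood at 775.2 and 921.0 against 56041.7 and 56258.8 in the GM-CSF libraries. The 32 macrophage identity genes together took 5.85% of all normalised reads and 5.55%. In the GM-CSF libraries they took 5.78% and 5.72%, so this share does not tell the 2 kinds of culture apart. Of 18 T and NK cell markers 4 reached 20, among them Il7r at 2908.6 and 2746.5 and Cd4 at 851.3 and 1092.7, while the defining T cell genes Cd3e (4.8 and 1.7) and Cd3d (8.6 and 6.1) did not. Lepr itself stood at only 6.7 and 21.8, and its sum of reads cannot show the db allele, which alters splicing.

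A pair of features set the M-CSF libraries apart beyond the genes of interest. Reads fell on 511 of 1100 olfactory receptor genes (46.5%) in db/+ and on 325 (29.5%) in db/db, and on 107 and 90 in the GM-CSF libraries. Olfactory receptors are best known from the nose, and their reads serve here as a gauge of scattered low-level signal. The second feature was a trend with base composition. Among genes at 200 or more in an M-CSF library and in both GM-CSF libraries, 8614 of 8718 had a GC content from their longest GENCODE transcript, and the median log2 fold between the genotypes went from 0.12 in the group with the least GC to -0.12 in the group with the most, over 5 groups of equal size. In the first group 77.9% of genes were higher in db/db, in the last 23.8%. The same groups had medians of 0.01 and 0.01 in the GM-CSF cultures. Spearman's rank correlation of GC content with the M-CSF log2 fold was -0.446, across genes of 1 pair of libraries, which are not independent replicates. Medians of gene groups with small differences are given below also less the median of genes of like GC content (GC-adjusted), and after scaling the libraries so that the macrophage identity genes have a median of 0 (macrophage scaling). Both adjustments were chosen after the data were seen.

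**Figure D1:**
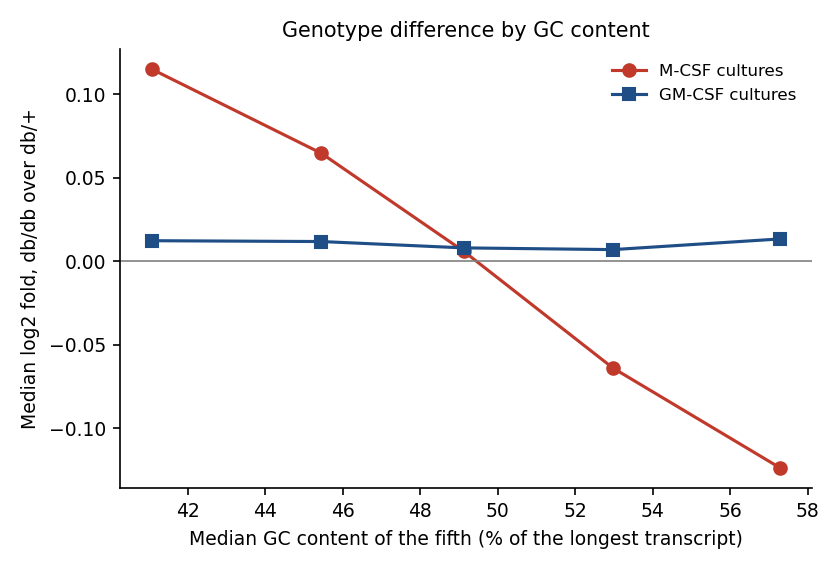
Median log2 fold, with db/db above db/+ as positive (vertical axis), in 5 equal groups of genes ordered by GC content in percent (horizontal axis), for M-CSF cultures (circles) and GM-CSF cultures (squares). The M-CSF line falls from 0.12 to -0.12 while the GM-CSF line stays near 0.01.

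Across all included genes, db/db cells had many more transcripts in excess than in deficit. A difference of 2-fold or more was seen in 766 genes (5.78%), of which 683 (5.15% of those included) were higher and 83 (0.626%) lower. By any amount 54.5% of included genes were higher and 45.4% lower, and the median log2 fold was 0.03. The interval of the ratio excluded 1 for 653 of the 683 and for 61 of the 83. These genes were picked by the fold of the same 2 values, so the interval is no separate support. The higher genes took 0.836% of all reads in db/+ and 2.24% in db/db. The lower genes took 0.0239% and 0.00966%, and 75 of the 83 stayed under 100 normalised reads in both libraries, against 243 of the 683 higher ones and 2338 of all 13264. The excess in db/db therefore included abundant transcripts, whereas the deficit was nearly confined to genes with few reads. In the GM-CSF cultures 73 of 12402 genes (0.589%) were 2-fold or more apart, 38 (0.306%) higher and 35 (0.282%) lower.

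The 10 genes with the highest folds were all modest in level. They were Grb14, an adaptor of the insulin receptor, Igj, the joining chain of secreted antibody, Car3, a carbonic anhydrase, the CXCL12-binding receptor Cxcr7, Arhgap28, Nrn1, Ptprz1, the ligands Wnt10b and Bmp5, and Galnt13. Their levels in db/db ranged from 21.8 (Car3) to 161.2 (Igj) and in db/+ from 0.0 (Car3) to 28.5 (Ptprz1). Grb14 stood at 5.7 and 61.9, a ratio of 10.8 (3.42 to 55.1). In the GM-CSF libraries none of the 10 exceeded 26.9. Among the 10 lowest folds were those of Pcdh12, Muc19, Dnahc5, Ano7, Scn4a, Otog, Gm14151, Nr1i2 and Dnahc10, most of them genes of other organs, and the levels of the 10 were 20.9 to 41.8 in db/+ and 0.0 to 7.0 in db/db. Reads on olfactory receptor genes were also more widespread in the db/+ library, and the part of such scattered signal in these 10 values was not tested.

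Ranked by the difference in normalised reads, the 10 genes with the largest excess in db/db included Fn1, Ahnak, Col1a2, Spp1, Thbs1, Malat1, Acta2, Sparc and Timp3, which apart from the giant scaffold protein Ahnak and the nuclear RNA Malat1 encode matrix proteins, contractile actin or, in the case of Timp3, a protease inhibitor. Fn1, which encodes fibronectin, stood at 13859.3 and 40482.7. Ahnak (155759.4 and 172516.0) and Malat1 (162563.1 and 173847.4) entered this ranking by their level, with ratios of 1.11 and 1.07. The largest deficit was in Psap, Rn45s, Rmrp, Rpph1, Fth1, Actb, Ctsb, Csf1r, Ctsd and Stab1. These are abundant genes of macrophages and housekeeping RNAs, with ratios from 0.807 (Stab1, a clearance receptor of macrophages) to 0.933 (Ctsb, a lysosomal protease).

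How a gene stood in the GM-CSF cultures went along with how far it differed between the genotypes in M-CSF. Of 466 genes with a GM-CSF library at 0, 230 (49.4%) were higher in db/db by 2-fold or more and 18 (3.86%) lower, with a median log2 fold of 0.99. Of 1060 genes whose lower GM-CSF value was above 0 and under 20, 250 (23.6%) were higher and 35 lower, with a median of 0.31. From 20 to under 200 the count was 132 of 2597 (5.08%) with a median of 0.05. From 200 to under 1000 it was 45 of 4210 (1.07%), and at 1000 or more it was 26 of 4931 (0.527%), with medians of 0.02 and 0.00. The M-CSF excess was therefore most frequent among genes with no reads in a GM-CSF library.

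**Figure D2:**
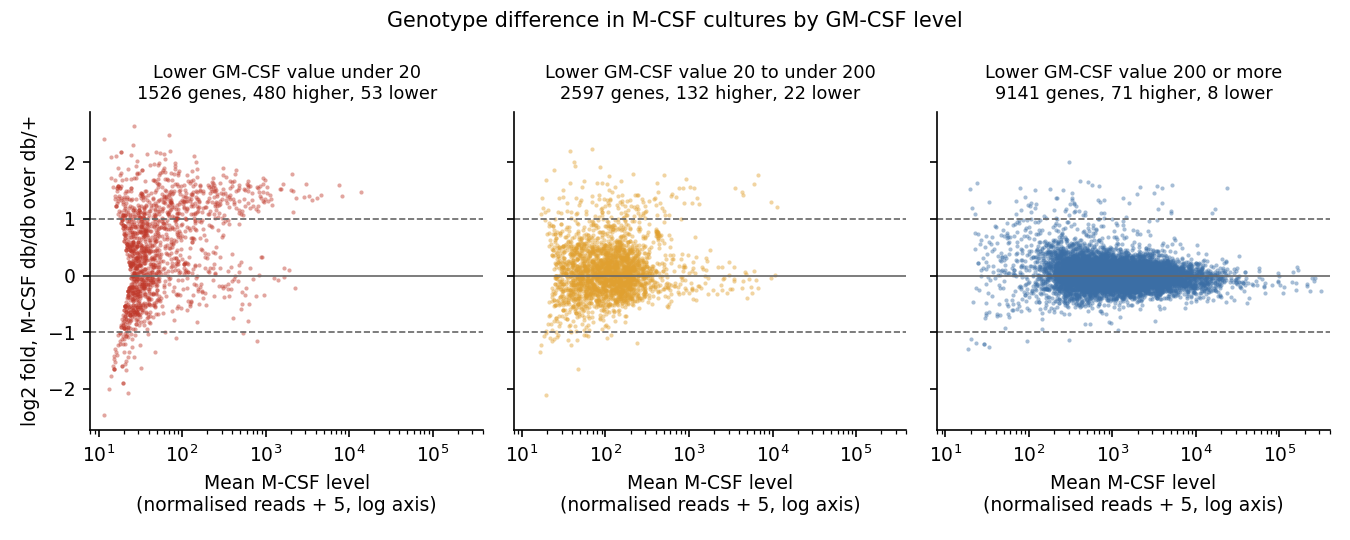
Each point is a gene, with its mean M-CSF level on a log axis and its log2 fold of db/db over db/+ in M-CSF on the vertical axis; dashed lines mark 2-fold, and the panels split genes by the lower of the 2 GM-CSF values. Of 1526 genes under 20 in GM-CSF 480 lie at or above the upper line, against 71 of 9141 at 200 or more.

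Among the 255 genes at 200 or more in an M-CSF library but under 20 in a GM-CSF library, 174 (68.2%) were higher in db/db by 2-fold or more, and 2 were lower. Their median log2 fold was 1.29, with 0.64 at the lower quartile and 1.63 at the 90th percentile, so the size of the excess varied among them. Genes at the lower end included neutrophil granule genes such as Mpo, which encodes myeloperoxidase, at 1447.7 and 1373.2, and Elane, which encodes neutrophil elastase, at 287.2 and 251.8. The 2 lower genes were Ifi44, an interferon-stimulated gene, and Ly6a, which encodes the surface antigen Sca-1. These were named after their values were seen.

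Stromal markers were among the genes in excess in db/db. Of 27 fibroblast and stromal markers that reached 20, 24 were higher in db/db, 21 of them at least 2-fold. Their median log2 fold was 1.33 beside 0.03 for all genes. Over all included genes 54.5% were higher and 5.15% at least 2-fold higher. Among the 1526 genes whose lower GM-CSF value was under 20, 31.5% were at least 2-fold higher. The summed level of the list was 50528.2 in db/+ and 106889 in db/db, or 0.207% and 0.445% of normalised reads, against 0.0712% and 0.0704% in the GM-CSF libraries. Single members carried much of these sums. In GM-CSF, Fstl1 alone stood at 19499.7 and 19329.9 of sums of 21720.7 and 21692.6, and in M-CSF, Igfbp4 stood at 17411.9 and 15978.7. Prrx1, a transcription factor of mesenchyme, stood at 535.5 and 1745.3, a ratio of 3.26 (2.85 to 3.73). Cxcl12, the chemokine by which marrow stroma holds blood stem cells, stood at 922.6 and 2829.2, a ratio of 3.07 (2.77 to 3.4). Col5a2, a chain of collagen V, stood at 1741.6 and 5381.4. The list did not differ as one: Vcam1, an adhesion molecule, was at 469.9 and 495.8, Kitl, which encodes stem cell factor, at 542.2 and 470.5, Thy1 at 21.9 and 10.4, and Igfbp4 at 17411.9 and 15978.7. In bulk RNA, a larger number of cells of a type cannot be told apart from more RNA per cell.

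Genes of contractile and bone-forming cells showed differences of like size. All 17 smooth muscle contractile genes at 20 or more were higher in db/db, 10 at least 2-fold, with a median of 1.14. Over all included genes these shares were 54.5% and 5.15%. Actg2, which encodes an enteric smooth muscle actin, stood at 342.4 and 1107.5, and Tagln, an actin-binding protein, at 2583.3 and 7224.3. Cnn1, a calponin, stood at 233.0 and 456.6, and Lmod1, an actin nucleator, at 97.0 and 227.4. Members under 20 in both libraries included Myh11, the smooth muscle myosin, at 18.1 and 19.2 and Des, which encodes desmin, at 9.5 and 7.0. Of 9 osteoblast and chondrocyte genes at 20 or more, 5 were at least 2-fold higher, and 5 other genes of the list did not reach 20. Ibsp, which encodes bone sialoprotein, stood at 227.3 and 846.1, a ratio of 3.72 (3.04 to 4.59). Sp7, the osteoblast transcription factor osterix, stood at 125.5 and 353.8, and Alpl, the bone alkaline phosphatase, at 351.0 and 1049.1. Ibsp, Sp7 and Alpl were listed at 0 to 4.3 in the GM-CSF libraries, whereas Spp1, also among the 5, stood there at 192050.4 and 188740.9. Short of 2-fold were Runx2 at 186.4 and 233.5, Omd at 13.3 and 20.9, Mef2c at 5187.6 and 5127.9, and Sox9 at 20.9 and 18.3.

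Genes listed for the response to serum response factor, YAP and TGF-beta followed the same course. The list holds TGF-beta family ligands and their binding proteins as well as targets. Of 22 at 20 or more, 15 were higher by 2-fold or more, against 5.15% of all included genes, with a median of 1.21. Ctgf, a secreted matricellular protein, stood at 5093.4 and 13537.2, and Cyr61, its relative, at 872.2 and 2536.5. Tgfb3, a ligand of the TGF-beta family, stood at 548.8 and 1530.9. The 7 members at 200 or more in both GM-CSF libraries were split: Lox, Inhba and Thbs1 were more than 2-fold higher, with ratios of 3.03, 2.48 and 2.16, while the ratio of Skil was 1.03 and those of Itgb5, Tgfb1 and Tgfbi were 0.909, 0.842 and 0.828. Of 4 pericyte and nerve glia genes at 20 or more, 2 were at least 2-fold higher, Cspg4 of pericytes standing at 97.0 and 217.8. Of 5 endothelial genes at 20 or more 2 were higher and 3 lower, with a median of -0.32: Pecam1 stood at 512.7 and 659.6, Eng at 1248.9 and 894.0, and Cdh5, the endothelial cadherin, at 20.9 and 15.7. Of 8 fat cell genes at 20 or more 5 were higher, 2 of them by 2-fold or more, Car3 at 0.0 and 21.8 and the desaturase Scd1 at 178.8 and 399.1. Fabp4, a fatty acid carrier also found in macrophages, stood at 422.3 and 687.5. The defining fat cell genes Adipoq (4.8 and 12.2), Plin1 (5.7 and 2.6) and Cfd (4.8 and 3.5) did not reach 20.

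Attention now turns to genes that are expressed in GM-CSF cultures as well, and so were treated as not being genes of stroma alone. Of the 9141 genes at 200 or more in both GM-CSF libraries, 79 (0.864%) were 2-fold or more apart between the M-CSF libraries, 71 (0.777%) higher in db/db and 8 (0.0875%) lower. By any amount 51.7% of the 9141 were higher and 48.3% lower, with a median of 0.01. The interval excluded 1 for 70 of the 71 and 7 of the 8, which is no separate support because the same values picked these genes. For 54 of the 71 and for all 8, the lower GM-CSF value was at or above the geometric mean of both M-CSF values, which held for 5297 of the 9141. The same 71 genes had log2 folds from -0.32 to 0.39 between the genotypes in GM-CSF, and the 8 from -0.19 to 0.14. Of all 9141 genes, 0 reached 2-fold there. Smaller GM-CSF folds are partly built in, because the 71 and the 8 were picked by their M-CSF fold. The 9141 also had to reach 200 in both GM-CSF libraries, but only a lower minimum in M-CSF. Of 8718 genes also at 200 or more in an M-CSF library, 54 were 2-fold or more higher in M-CSF db/db and 1 was lower. Just inside the threshold were Gpc1 (694.3 and 1397.6) and Asns (475.6 and 959.3), and just outside it Gcnt2 (70.4 and 145.5) and 2310022B05Rik (480.3 and 959.3). The stromal markers moved with this set in the same 2 libraries, from 50528.2 to 106889 normalised reads in sum, and their part in the 71 differences was not tested.

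**Figure D3:**
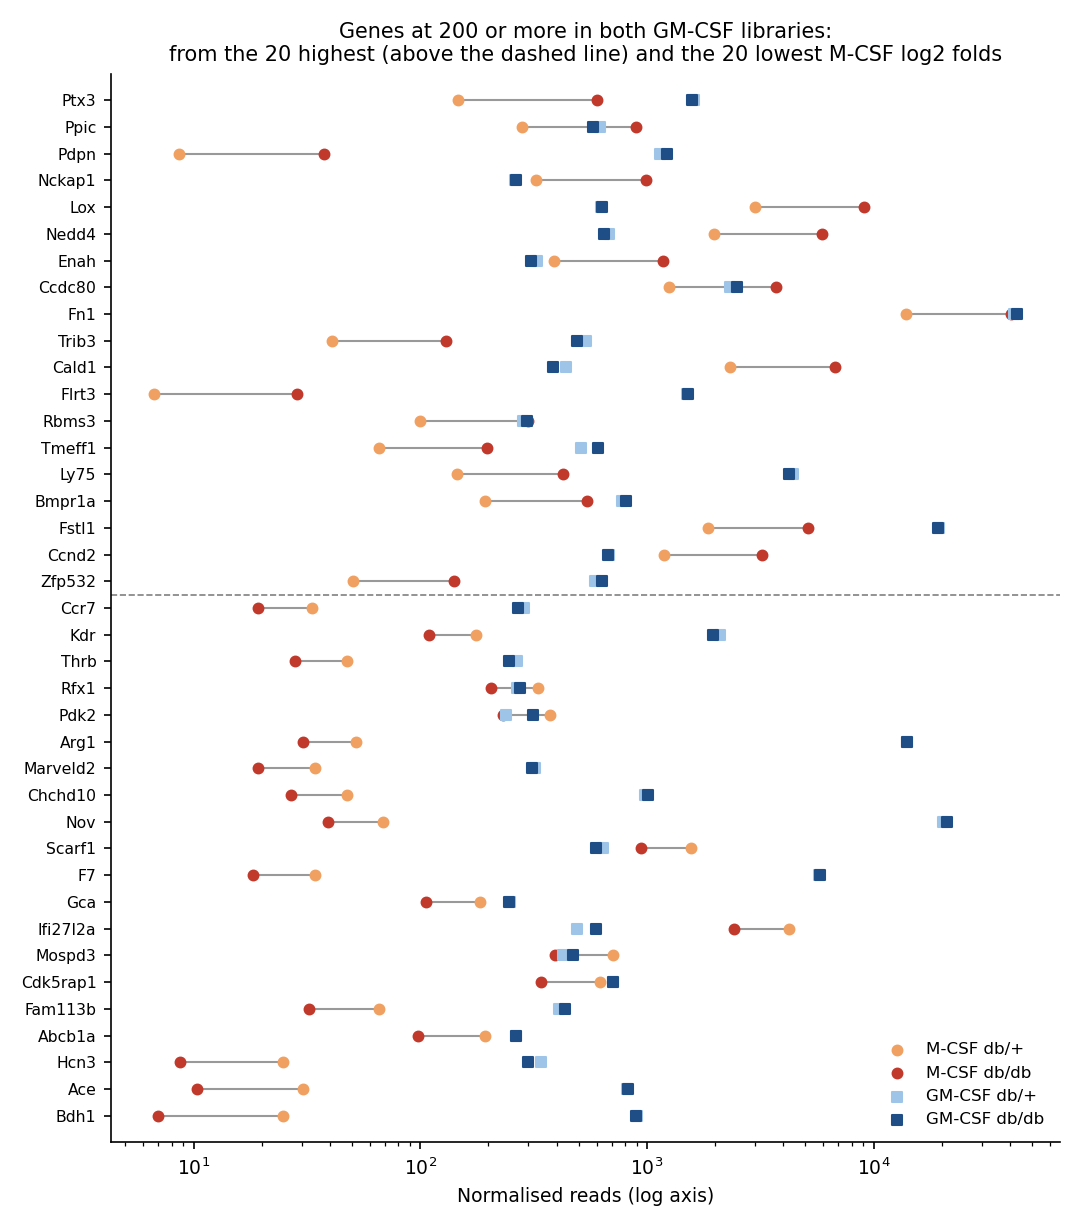
Normalised reads on a log axis in M-CSF db/+ (orange circles), M-CSF db/db (red circles), GM-CSF db/+ (light squares) and GM-CSF db/db (dark squares) for genes at 200 or more in both GM-CSF libraries, taken from the 20 highest and the 20 lowest M-CSF folds. The squares of a gene lie close together, while the circles are apart, db/db to the right in the genes above the dashed line and to the left in those below it. The genes were picked by their M-CSF fold, so the wider gap between circles is partly built in.

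Genes of this set that encode secreted or matrix proteins are described first, chosen after their values were seen. Ptx3, a soluble pattern recognition protein of the pentraxin family, had the highest fold, with 146.5 normalised reads in M-CSF db/+ and 601.2 in M-CSF db/db, a ratio of 4.1 (3.2 to 5.33). In the GM-CSF libraries it stood at 1607.2 and 1587.9, above both M-CSF values. Fn1 reached 40482.7 in db/db, close to its 41778.6 and 42766.1 in the GM-CSF libraries, with a ratio in M-CSF of 2.92 (2.84 to 3.0). Lox, the enzyme that crosslinks collagen, stood at 2998.0 in db/+ and 9088.1 in db/db against 627.0 and 634.7 in GM-CSF, so here the M-CSF level was the higher one. Fstl1, a secreted glycoprotein of mesenchyme, stood at 1867.1 and 5156.6, with 19499.7 and 19329.9 in GM-CSF. Ccdc80, a matrix-binding protein, stood at 1254.6 and 3704.1, and Mmp2, a gelatinase, at 821.8 and 2129.6. Spp1, which encodes osteopontin, stood at 11354.9 and 25753.5, far under its 192050.4 and 188740.9 in GM-CSF. Ctsk, the collagen-cleaving cathepsin of osteoclasts, stood at 179.8 and 411.3, with 10565.2 and 10338.4 in GM-CSF.

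Of 30 matrix and protease genes at 20 or more, 26 were higher in db/db, 15 at least 2-fold. Over all included genes these shares were 54.5% and 5.15%. The 19 of the list at 200 or more in both GM-CSF libraries had a median of 0.39. Of these, 5 were at least 2-fold higher, against 0.777% of all 9141 such genes. The metalloproteinases of macrophages differed less: Mmp12, the macrophage elastase, stood at 4085.2 and 4490.9, Mmp19 at 1637.9 and 1670.4, and Mmp14, a membrane-bound collagenase, at 1541.8 and 2555.6. The tissue inhibitors were further apart, Timp1 at 668.7 and 1972.7 and Timp3 at 3564.9 and 12274.6, whereas Timp2 stood at 9095.0 and 11995.8.

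Other genes among the 20 highest of this class have varied roles. Nckap1, a subunit of the WAVE complex that starts actin branching, stood at 323.4 and 992.5, and Enah, which lengthens actin filaments, at 389.0 and 1174.6. Cald1, which encodes caldesmon, stood at 2321.8 and 6761.6. The GM-CSF levels of these 3 genes, from 261.3 (Nckap1) to 440.8 (Cald1), were under their M-CSF db/+ values. Nedd4, a ubiquitin ligase, stood at 1972.7 and 5906.8, Ppic, a cyclophilin, at 281.5 and 896.6, and Rbms3, an RNA-binding protein, at 99.9 and 298.0. Bmpr1a, a receptor of bone morphogenetic proteins, stood at 194.0 and 544.6 and Tmeff1, a transmembrane protein, at 65.6 and 196.9. Zfp532, a zinc finger protein, stood at 50.4 and 140.3.

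The set also held receptors and surface proteins. Ly75, the endocytic receptor DEC-205 of dendritic cells, stood at 145.5 in M-CSF db/+ and 426.1 in M-CSF db/db, with 4433.6 and 4231.1 in GM-CSF, a ratio in M-CSF of 2.93 (2.26 to 3.84). Marco, a scavenger receptor, stood at 48.5 and 115.0, a ratio of 2.37 (1.48 to 3.91). Colec12, a scavenger receptor of the collectin family, stood at 2307.5 and 5251.6. Pdpn, which encodes podoplanin and is also a member of the stromal list, stood at 8.6 and 37.5 against 1138.4 and 1224.3 in GM-CSF, and Flrt3 at 6.7 and 28.7 against 1499.6 and 1515.8. These last 2 genes rest on few reads in M-CSF, as the interval of Flrt3, from 1.33 to 19.8, shows. The 152 genes whose GM-CSF level was at least 10 times their M-CSF level leaned to neither genotype as firmly as stroma did: 10 were higher by 2-fold or more (6.58%) and 6 lower (3.95%), with a median of 0.09. Of the 7557 genes whose GM-CSF and M-CSF levels lay within 2-fold of each other, 23 were higher (0.304%) and 0 lower.

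The growth factor of the culture was itself among the higher genes. Csf1, which encodes M-CSF, stood at 2485.4 and 6064.6, a ratio of 2.44 (2.29 to 2.6), with 3070.9 and 3134.9 in GM-CSF. Its receptor Csf1r was slightly lower in db/db, with a ratio of 0.872 (0.862 to 0.882). Csf2ra, a subunit of the GM-CSF receptor, stood at 4374.4 and 3022.7, a ratio of 0.691 (0.649 to 0.736), and Csf2rb at 6447.9 and 5638.5. Of 18 growth factor receptors and signalling genes at 20 or more, Csf1 alone was at least 2-fold apart. Of all included genes 5.78% were, so 1 of 18 says nothing particular to this list. Socs3, a feedback inhibitor of cytokine signalling, stood at 343.4 and 480.1.

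Cell cycle genes mostly showed a small excess in db/db. Of 38 such genes 30 were higher, against 54.5% of all included genes. The interval lay above 1 for 14 of the 38 and below 1 for 1, counts that are not given here for all genes. The median of the 38 genes, 0.20, was 0.19 GC-adjusted and 0.32 under the macrophage scaling. Ccnd2, which encodes the G1 cyclin D2, was the one member past 2-fold, at 1191.8 and 3228.3. Its relative Ccnd1 stood at 1479.0 and 2553.9, while the proliferation marker Mki67 stood at 2284.7 and 2381.4. In the list for ATF4 and endoplasmic reticulum stress 20 of 27 were higher, with a median of 0.12 that was 0.15 GC-adjusted and 0.24 under the macrophage scaling. The 5 at least 2-fold higher, against 5.15% of all included genes, were Aldh1l2, Trib3, Vldlr, Psat1 and Asns. Trib3, a pseudokinase induced by ATF4, stood at 40.9 and 129.8, a ratio of 3.17 (1.94 to 5.39). Psat1, an enzyme of serine synthesis, stood at 487.9 and 1059.5, and Phgdh, the enzyme that opens that pathway, at 80.8 and 160.3. The chaperones of the endoplasmic reticulum were level, with Hspa5 at 23953.9 and 24029.1, and Ddit3, which encodes CHOP, stood at 553.6 and 507.1.

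Insulin and leptin signalling is of interest because the db/db donors, unlike the db/+ controls, were labelled diabetic. Of 25 genes at 20 or more, 6 were higher in db/db by 2-fold or more, against 5.15% of all included genes. These were Grb14, Igfbp5, Irs1, Grb10, Igfbp7 and Lepr. Irs1, the docking protein of the insulin receptor, stood at 217.8 and 699.7, Grb10, an inhibitory adaptor, at 592.6 and 1753.1, and Igfbp5, an IGF-binding protein, at 68.5 and 291.0. Lepr rests on few reads, and its interval, from 0.951 to 15.5, included 1. None of the 6 reached 200 in a GM-CSF library. The 19 genes of the list that did so in both had a median of -0.03, and 0 were 2-fold apart. Only 0.864% of all 9141 such genes were 2-fold apart, so 0 of 19 says nothing particular to this list. The insulin receptor gene Insr stood at 3971.1 and 3874.0, Irs2, the second docking protein, at 491.7 and 516.7, and Foxo3 at 2416.9 and 1869.9.

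In the opposite direction stood interferon-stimulated genes, nearly all of them lower but by unequal amounts. Of 45 at 20 or more, 44 were lower in db/db, against 45.4% of all genes lower by any amount, and the interval lay below 1 for 35 of them. Intervals of genes with many reads miss 1 at small shifts. They lay below 1 also for 21 of 31 macrophage identity and 22 of 30 lysosomal genes, and the count over all genes is not given here. The median log2 fold of the interferon-stimulated genes was -0.19, in a range from -1.15 to 0.04, and 1 gene was at least 2-fold lower. GC-adjusted it was -0.24, with 44 of the 44 genes that had a GC value below 0. The macrophage scaling brought the median to -0.07. Ifi44 stood at 1173.7 and 525.4, a ratio of 0.448 (0.389 to 0.515). Oas3, an enzyme that senses double-stranded RNA, stood at 4572.2 and 3036.6, a ratio of 0.664 (0.624 to 0.707), Oasl1 at 527.9 and 310.2, and Ifi27l2a at 4234.5 and 2423.2. Irf7, the master factor of the interferon response, stood at 5663.2 and 4305.3, and Isg15, a ubiquitin-like protein, at 701.9 and 514.1. Parp14 at 9424.1 and 9075.1, Eif2ak2 at 1793.9 and 1776.7, and Samd9l at 7514.1 and 7749.7 were the least apart of those at 20 or more.

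Promoter sequence is shown for the interferon and the contractile genes because these groups lie on opposite sides of 0 and are known for different short elements. The interferon-stimulated response element was searched as GAAA, any 2 bases and GAAA, and the CArG box, which binds serum response factor, by its usual consensus, on both strands of windows from 250 bases before to 50 after each RefSeq start (GRCm38.p6). The first was found in 19 of 39 windows of interferon-stimulated genes (48.7%) and in 3.44% of all 32851 windows, and in 1 of 16 windows of smooth muscle genes. The CArG box was found in 4 of 16 smooth muscle windows (25%), in 1.63% of all windows, and in 0 of 39 windows of interferon-stimulated genes. It was also found in 0 of 22 windows of fibroblast and stromal genes, whose median log2 fold was 1.33. The response element was found in 0 of 7 windows of MHC class II genes, whose median was -0.39. Each element was thus absent from the other list searched on its side of 0. The remaining lists were not searched. The 250 bases before the start are printed for 3 interferon-stimulated and 3 smooth muscle genes with a match, on the strand of the gene, with the match in capitals.
Oas3, chr5:120777660-120777909, minus strand: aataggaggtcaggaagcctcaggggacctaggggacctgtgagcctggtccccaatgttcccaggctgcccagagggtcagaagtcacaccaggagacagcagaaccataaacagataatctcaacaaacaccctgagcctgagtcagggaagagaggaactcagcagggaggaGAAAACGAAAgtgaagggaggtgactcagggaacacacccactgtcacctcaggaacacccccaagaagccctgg
Isg15, chr4:156200819-156201068, minus strand: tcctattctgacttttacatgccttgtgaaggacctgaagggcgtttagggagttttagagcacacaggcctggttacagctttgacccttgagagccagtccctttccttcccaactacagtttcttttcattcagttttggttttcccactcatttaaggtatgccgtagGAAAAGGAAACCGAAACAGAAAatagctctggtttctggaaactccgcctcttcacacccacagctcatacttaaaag
Stat2, chr10:128270248-128270497, plus strand: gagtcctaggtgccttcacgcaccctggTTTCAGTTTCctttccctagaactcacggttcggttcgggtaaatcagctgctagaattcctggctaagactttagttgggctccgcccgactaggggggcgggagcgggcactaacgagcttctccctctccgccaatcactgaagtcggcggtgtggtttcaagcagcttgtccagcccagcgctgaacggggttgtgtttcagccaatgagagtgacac
Myl9, chr2:156775214-156775463, plus strand: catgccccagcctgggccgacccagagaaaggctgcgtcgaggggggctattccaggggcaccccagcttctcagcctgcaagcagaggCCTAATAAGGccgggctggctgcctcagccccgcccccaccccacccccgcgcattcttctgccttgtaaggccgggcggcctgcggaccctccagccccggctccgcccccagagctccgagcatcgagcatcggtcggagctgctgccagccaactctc
Vcl, chr14:20929148-20929397, plus strand: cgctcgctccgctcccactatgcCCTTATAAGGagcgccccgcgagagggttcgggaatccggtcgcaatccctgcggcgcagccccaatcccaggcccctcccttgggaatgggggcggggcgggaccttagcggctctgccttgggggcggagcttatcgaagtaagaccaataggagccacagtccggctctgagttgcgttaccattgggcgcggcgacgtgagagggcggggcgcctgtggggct
Cnn2, chr10:79988350-79988599, plus strand: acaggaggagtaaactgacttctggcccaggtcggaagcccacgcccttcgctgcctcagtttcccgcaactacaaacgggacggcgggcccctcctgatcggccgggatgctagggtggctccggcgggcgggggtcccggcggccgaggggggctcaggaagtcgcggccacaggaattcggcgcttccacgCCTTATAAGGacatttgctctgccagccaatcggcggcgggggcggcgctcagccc
Isg15 holds 3 overlapping matches in 1 run, and Stat2 holds its match on the other strand. A match describes these letters and no measured binding. Beside them stand the M-CSF log2 folds of the 6 genes: -0.59 for Oas3, -0.45 for Isg15 and -0.35 for Stat2, a mediator of interferon signals, and 1.36 for Myl9, a myosin light chain, 1.14 for Vcl, which encodes vinculin, and 0.96 for Cnn2, a calponin. Vcl and Cnn2 are expressed in GM-CSF cultures too, Vcl at 7705.2 and 7542.4 and Cnn2 at 762.7 and 729.4.

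Genes of antigen presentation were lower in db/db as well. Of 10 MHC class II genes at 20 or more 9 were lower, against 45.4% of all included genes. The interval lay below 1 for all 9, a count that is not given here for all genes. The median was -0.39. GC-adjusted it was -0.33, and under the macrophage scaling -0.27. Ciita, the factor that switches on class II genes, stood at 2629.9 and 1740.1, a ratio of 0.662 (0.609 to 0.718). Cd74, the invariant chain, stood at 49679.8 and 37748.4, and H2-Ab1 at 12790.2 and 9663.2. The exception was H2-Ob, at 20.9 and 41.8. In the GM-CSF libraries Ciita stood at 951.1 and 1059.7 and Cd74 at 76587.8 and 75148.7. Of 14 MHC class I and processing genes 13 were lower, with a median of -0.27 that was -0.18 GC-adjusted and -0.14 under the macrophage scaling. Tap1, the peptide transporter, stood at 2540.5 and 1991.0 and B2m at 56863.9 and 50804.7. Of 15 interferon-gamma GTPases 13 were lower, with a median of -0.24 that was -0.29 GC-adjusted and -0.11 under the macrophage scaling, while Gbp2 stood apart at 640.1 and 934.9.

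**Figure D4:**
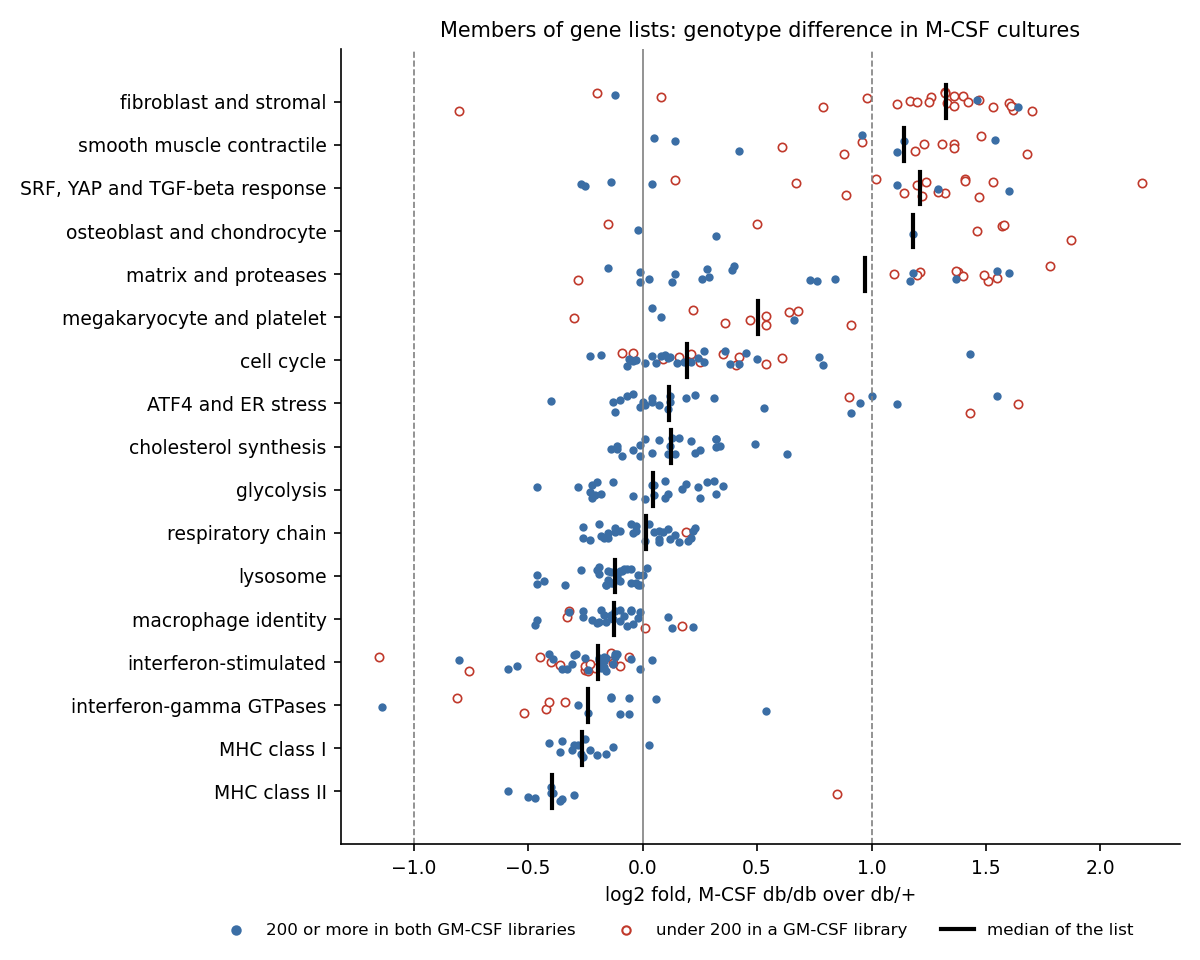
Log2 fold of db/db over db/+ in M-CSF (horizontal axis) for each member at 20 or more of 17 gene lists; filled points are genes at 200 or more in both GM-CSF libraries, open points the others, black bars list medians and dashed lines 2-fold. Stromal and contractile lists centre between 1.14 and 1.33 and hold mostly open points, while MHC class II genes centre at -0.39.

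Macrophage genes in a wider sense were lower by small amounts. Over all included genes 45.4% were lower by any amount. Of 31 macrophage identity genes 26 were lower, with a median of -0.13, which is -0.07 GC-adjusted and 0 by construction under the macrophage scaling. Siglec1, the sialic acid receptor of resident macrophages, stood at 27020.4 and 19562.6 and Cd68 at 15996.5 and 11644.7, both with a ratio near 0.73. Emr1 and Lyz2 (250023.8 and 242719.4) were nearly level, and Pla2g7 was higher, at 19995.2 and 23236.2. Of 30 lysosomal genes 29 were lower, with a median of -0.12 that was -0.09 GC-adjusted and 0.00 under the macrophage scaling. Grn, which encodes progranulin, stood at 33076.5 and 24500.5 and Psap, which encodes prosaposin, at 340731.8 and 283377.2. Of 20 complement and Fc receptor genes 15 were lower, with a median of -0.13 that was -0.07 GC-adjusted and 0.00 under that scaling. As the stromal share of reads was higher in db/db, a slight deficit of macrophage transcripts per total reads and a lower level per macrophage cannot be told apart.

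Among genes at 200 or more in both GM-CSF libraries, the lower side was short. The 3 named genes past 2-fold had few reads in M-CSF: Bdh1, a ketone body enzyme, stood at 24.7 and 7.0, Ace at 30.4 and 10.4, and Hcn3, a pacemaker channel, at 24.7 and 8.7, against 299.1 to 904.0 in GM-CSF. The interval of Hcn3 reached 1.05. The other 5 were Ear2, Ear3, Ear12, Gbp6 and Gbp10, which have near-identical copies among which reads may be split, and Ear3 and Ear12 had the same values in every library. Of these Gbp6 had the most reads, 439.4 and 196.9. Short of 2-fold, Cdk5rap1 stood at 624.0 and 341.6, a ratio of 0.547 (0.456 to 0.655), Mospd3 at 711.5 and 392.1, Abcb1a, a drug transporter, at 193.1 and 97.6, and Scarf1, a scavenger receptor, at 1568.5 and 940.2. Arg1, which encodes arginase, stood at 52.3 and 30.5 against 14048.8 and 14108.0 in GM-CSF, with an interval from 0.301 to 1.1. Nov (68.5 and 39.2), Kdr (176.0 and 109.8), Gca (184.5 and 106.3), Rfx1 (331.9 and 204.8) and Pdk2 (374.8 and 232.6) were further genes among the 20 lowest of this class with an interval below 1, as was Fam113b at 65.6 and 32.2.

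Metabolic groups had small medians that moved with the adjustment. For 24 cholesterol synthesis genes, 17 of them higher, the median of 0.12 was 0.13 GC-adjusted and 0.25 under the macrophage scaling. Sqle, the squalene epoxidase, stood at 919.8 and 1292.2. For 25 glycolysis genes the median was 0.05, then 0.13 GC-adjusted and 0.17 under the scaling. For 25 genes of fatty acids and lipid storage these medians were 0.05, 0.11 and 0.17 in the same order. They were 0.01, -0.01 and 0.14 for 31 respiratory chain genes, 0.00, 0.04 and 0.13 for 18 PPAR targets, and -0.01, -0.01 and 0.11 for 26 oxidative stress genes. Among the PPAR targets Pdk4, the kinase that shuts off pyruvate dehydrogenase, stood apart at 537.4 and 1394.1 with at most 1.1 in GM-CSF. LXR targets, which include the efflux pumps of cholesterol, had medians of -0.08, -0.03 and 0.05 in that order over 15 genes, and ribosomal protein genes -0.10, -0.08 and 0.02 over 47.

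Cytokine and chemokine genes showed no common direction. Of 18 inflammatory cytokine genes at 20 or more 11 were higher and 7 lower, with a median of 0.06 that was 0.04 GC-adjusted and 0.18 under the macrophage scaling. Ptgs2, which encodes cyclooxygenase 2, stood at 333.9 and 741.5 and Il1rn, the interleukin 1 receptor antagonist, at 556.4 and 1030.8. Of 18 chemokine genes 8 were higher and 10 lower, and apart from Cxcl12 none was 2-fold apart. That is near the 5.78% of all included genes. Ccl3 stood at 1015.8 and 746.7. Alternative activation genes had a median of -0.10 over 12 genes, -0.06 GC-adjusted and 0.02 under the macrophage scaling, with Tgm2 at 5058.2 and 3376.5 and Mrc1, the mannose receptor, at 20069.4 and 22021.5. Of 21 immediate early genes, which also respond to handling of cells, 11 were higher and 10 lower, with a median of 0.03. The 21 scavenger and clearance genes were split 10 to 11.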

How the data were processed

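TopHat 1.2.0 and edgeR are named in the submitters' processing notes, as are the mouse builds mm8 and mm9, whose roles are unstated; for the counting tool, annotation and filters the sources used here give nothing. Each deposited value is a normalised signal, the reads of a gene divided by a factor of its library. Dividing by the value of 1 read gave whole numbers within 0.1 for at least 99.9956% of values, so whole reads were recovered. A count test needs replicates and could not be run with 1 library a group. Even read numbers were commoner than odd ones, so intervals used read pairs (conditional exact binomial, scipy 1.17.1). Rows with a repeated symbol (38 symbols) or a date-like symbol (25) were counted and never named, and a few further genes are not reported here. There were 0 unused sample columns.

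Named genes were the 10 highest and 10 lowest folds, the 20 highest and 20 lowest among genes at 200 or more in both GM-CSF libraries, the 10 largest differences in reads each way, label checks, and up to 4 members of each of 43 lists; further list members are named, after their values were seen, to show levels. Of 925 list entries 923 were found. Genes, lists and rules were chosen with earlier results of these data known. Median folds by GC content used the longest transcript of each gene in the GENCODE annotation. The computation was tested on simulated data. Other pseudocounts, minimums and scalings were tried.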

Additional observations from a re-analysis of the deposited data

Results flagged for a closer look

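Rem1, a small GTPase, had opposite differences of at least 2-fold in the 2 kinds of culture: log2 of the db/db to db/+ ratio came to 1.28 in M-CSF, from 17.1 and 48.8 normalised reads, and -1.01 in GM-CSF, from 46.0 and 20.4. Syde1 likewise had 1.32 in M-CSF, from 124.6 and 318.9, and -1.19 in GM-CSF, from 21.3 and 6.5. With 1 library in each group the difference between the cultures was not tested, and the GM-CSF interval of Syde1 ran from 0.0532 to 1.19.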

How the results depend on the processing

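No paired analysis was possible because each group holds 1 library, and for the same reason no replicate could be left out. With a pseudocount of 20 in place of 5, 12 genes were at least 2-fold lower in M-CSF db/db (83 otherwise), 2 of those at 200 or more in both GM-CSF libraries were (8 otherwise), and 305 of those under 20 in GM-CSF were at least 2-fold higher (480 otherwise). With no filter on low values 554 genes were lower, and 15 among those expressed in GM-CSF; the median of the pericyte and nerve glia list turned to -0.39 from 0.94. With a minimum of 200 in an M-CSF library 299 genes were higher and 4 lower, and 1 among those expressed in GM-CSF was lower; eosinophil and mast cell lists then had no member left. Asking for 1000 in both GM-CSF libraries left 26 higher and 3 lower genes. In the GM-CSF cultures, 64 genes were higher and 63 lower with a pseudocount of 1, 190 and 129 with no filter, and 0 and 0 at a minimum of 200. Fewer genes enter at the higher minimums by construction; otherwise the cause was not tested. Scaling on the macrophage identity list, and subtracting the median of 20 bins of GC content, were added after the data were seen. The first shifted db/db by 0.13 and the median of all genes to 0.15, and gave 820 higher and 57 lower genes; the second gave 705 and 71. Of 87 named genes past 2-fold, 71 stayed so in every alternative run for single genes and 0 reversed. A reversal could not occur in these runs, so the 0 is no support. A pseudocount keeps the sign of a fold, and the scalings and GC bins shift a log2 fold by at most 0.14. Of the 83 lower genes, 75 stayed below 100 in each M-CSF library, and how depth bears on them was not tested.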

Other observations

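Markers of marrow cells other than macrophages and stroma were present in both M-CSF libraries. Over all included genes 54.5% were higher in db/db and 45.4% lower. Megakaryocyte and platelet genes were higher in db/db in 11 of 12 cases, with a median log2 fold of 0.50 and none at 2-fold; Itga2b, the platelet integrin chain, stood at 236.8 and 448.7 normalised reads (db/+ first, then db/db), and Ppbp, a platelet chemokine, at 332.9 and 520.2, while Pf4, which macrophage cultures also contain in quantity, stood at 8475.7 and 8934.8. Among 8 erythroid genes at 20 or more 7 were higher, but Hbb-b1 and Hbb-b2 had the same values in every library, as did Hba-a1 and Hba-a2, so reads of these copies cannot be told apart and 5 of 6 separate values were higher, with Tfrc, the transferrin receptor of all dividing cells, at 5733.6 and 8006.8. B and plasma cell genes were split, 9 higher and 4 lower of 13: Igj stood at 24.7 and 161.2 and Ebf1, a factor also found in stroma, at 64.7 and 156.8, but Cd79b stood at 202.6 and 162.9. Neutrophil genes were level, 6 higher and 10 lower of 16, with a median of -0.04 and a summed level of 19154.3 and 19674.8, and S100a9 stood at 5749.7 and 6113.3. Dendritic cell, osteoclast, iron and heme, and mast cell lists had medians of -0.10, -0.12, -0.10 and 0.19, and GC-adjusted -0.08, -0.04, -0.04 and 0.09.

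A few genes were at least 2-fold apart in the same direction in both kinds of culture, at 20 or more in each, all with few reads in GM-CSF. Cdh2, which encodes N-cadherin, stood at 218.8 and 582.9 in M-CSF and at 5.6 and 22.6 in GM-CSF, and Fbln5, an elastic fibre protein, at 87.5 and 192.6 in M-CSF and 15.7 and 38.7 in GM-CSF. Cgref1 stood at 57.1 and 120.2, and 11.2 and 32.3. Zfp13 was the lower one, at 25.7 and 9.6, and 33.7 and 7.5. The GM-CSF intervals of the 3 higher genes began under 1, at 0.969 for Cdh2, 0.983 for Fbln5 and 0.994 for Cgref1.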
